A study of Drosophila melanogaster with 18 samples.

Results

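The sodium pump of *Drosophila* is described here by 4 genes, *Atpalpha*, *nrv1*, *nrv2* and *nrv3*, out of the 16624 genes in the deposited table. They were picked by gene symbol, with earlier results of these data known, and all 4 were found. The paper itself lists *nrv1*, *nrv2* and *nrv3* among known genes of the ear whose expression varied with age. RNA came from the 2nd antennal segment, the part of the antenna that houses the fly's ear, Johnston's organ (JO). The flies were virgin Canton-S, a wild-type laboratory strain, with no mutation and no treatment in any group. The series has 18 libraries, a pair for every combination of sex and age: males of day 1, day 5, day 10, day 25 and day 50 after eclosion, and females of the same ages except day 10. Each library holds RNA of whole dissected segments, so nerve cells, support cells, glia, epidermis and any attached tissue are mixed. From these libraries alone, a fall in a transcript from fewer cells of a type cannot be told apart from one from less RNA per cell. The paper counted JO neurons in flies of another genotype and saw no difference in their number from day 1 to day 50. That count covers neurons only. Nothing in the sources used here says whether the 2 libraries of a group came from separate cohorts of flies, so p-values measure the spread between these libraries, which may be partly technical.

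The Na+/K+-ATPase pumps sodium out of cells and potassium into them, and pays for each cycle with ATP. Its alpha subunit, encoded by *Atpalpha*, binds the ions and splits ATP. The beta subunit, encoded by one of the *nervana* genes, escorts the alpha subunit to the cell surface and is needed for its activity. In JO, *Atpalpha* and *nrv2* are known to act in the scolopale cells, which wrap the sensory dendrites and help to keep the fluid around them rich in potassium, whereas *nrv3* acts in the JO neurons. Knockdown of *Atpalpha* or *nrv2* in scolopale cells is known to deafen flies. Outside the ear, *nrv2* is prominent in glia, and the alpha subunit and Nrv2 are also needed to build septate junctions, the barrier junctions of insect epithelia.

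The files hold normalised read counts, which are reads per gene divided by a size factor for each library. Between 5815182 and 14315927 reads per library fell into genes, with the smallest totals in the males of day 25. The auditory genes *iav*, *nan* and *nompC*, which encode mechanosensory channels of JO neurons, had reads in every library, as did *nompA*, which encodes a protein linking the cilia to the sound receiver. This is a weak check of the tissue, since 15290 to 16075 of the 16624 genes had reads in each library. Summed over 8 retina marker genes, CT06, CT09, CT15, CT16 and CT18 had 102340, 68240, 114650, 87604 and 59694 normalised counts. The other libraries had between 917 and 22992. At day 50, 2 libraries carried transcripts of the sex opposite to their label. The library labelled male CT16 had 25444 of *Yp1*, a yolk protein transcript of females, and the library labelled female CT18 had 16418 of *roX1*, an RNA of male dosage compensation. Both also carried the transcript of their labelled sex, 21999 of *roX1* in CT16 and 19045 of *Yp1* in CT18. Among the other libraries labelled male, CT15 of day 50 had 1944 of *Yp1* and the rest had at most 184. The other libraries labelled female had at most 1118 of *roX1*. At day 25, all 4 pump genes were lower in CT12 than in the other male library CT11, and lower in CT14 than in the other female library CT13. The changes, ratios and lists at day 50 are also given without CT16 and CT18, and the changes and ratios at day 25 without CT12 and CT14.

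*Atpalpha* (FBgn0002921) lies on chromosome 3R from 20948714 to 20976239 on the plus strand of dm6, and its 11 annotated transcripts cover 6680 bases of exon. *nrv1* (FBgn0015776) and *nrv2* (FBgn0015777) are neighbours on the minus strand of 2L, at 6778555 to 6786861 and 6789770 to 6798862, with 2908 bases between them. *nrv3* (FBgn0032946) lies elsewhere on 2L, from 21380000 to 21393319 on the plus strand. No other annotated gene shares exonic bases with any of the 4.

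Set side by side per kilobase of exon, the alpha subunit was the most abundant of the set. Averaged over the 18 libraries, *Atpalpha* had 6064 normalised counts per kb, *nrv2* 4106, *nrv3* 3115 and *nrv1* 920. These levels put *Atpalpha* at place 137, *nrv2* at 232, *nrv3* at 320 and *nrv1* at 942 of the 16332 genes with an annotated length. The 4 genes together took between 0.37% and 0.51% of all reads at day 50, and between 0.82% and 1.09% at day 1 (0.37% and 0.44% at day 50 without CT16 and CT18).

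*Atpalpha*, the catalytic subunit, was lower in all libraries of days 25 and 50 than in any younger one. At day 1 it had normalised counts of 75666 and 66749 in males and 48904 and 60751 in females. At day 5 it had 49065 and 41829 in males and 40338 and 44938 in females, and the males of day 10 had 42281 and 44574. The day 5 libraries barely overlapped with those of day 1, and day 10 sat within the range of day 5. At day 25 the counts were 27394 and 17283 in males and 32507 and 25513 in females, below every younger library. At day 50 the males CT15 and CT16 had 21237 and 29761 and the females CT17 and CT18 had 29598 and 30777, within the range of day 25. The means over both sexes were 63018 ± 11228 at day 1, 44042 ± 3858 at day 5, 25674 ± 6327 at day 25 and 27843 ± 4435 at day 50 (SD, n = 4 each), so that 44.2% of the day 1 level was left at day 50.

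*nrv2*, the beta gene of scolopale cells and glia, had the largest fall of the 4. Its normalised counts at day 1 were 33692 and 28063 in males and 30550 and 28345 in females. At day 5 they were 13123 and 12133 in males and 11937 and 15188 in females, less than any day 1 library by a wide margin. The males of day 10 stayed near this level with 10102 and 14160. At day 25 males had 9038 and 5588 and females 11371 and 9192, and at day 50 the males had 5495 and 7642 and the females 8002 and 10113. The means were 30162 ± 2603 at day 1, 13095 ± 1488 at day 5, 8797 ± 2390 at day 25 and 7813 ± 1891 at day 50 (SD, n = 4 each). Most of the loss thus lay between days 1 and 5, and 25.9% of the day 1 level was left at day 50.

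*nrv1*, the least abundant beta gene of the 3, fell between days 1 and 5, and its later ages overlapped. Its normalised counts at day 1 were 3383 and 3404 in males and 3103 and 3123 in females. At day 5 they were 1529 and 1932 in males and 1553 and 1690 in females, with no overlap with day 1. The males of day 10 had 1978 and 2263, slightly above both males of day 5. At day 25 males had 1603 and 1231 and females 1846 and 1473, and at day 50 males had 1206 and 1588 and females 1720 and 1736, so that days 5, 25 and 50 overlapped. The means were 3253 ± 163 at day 1, 1676 ± 185 at day 5, 1538 ± 257 at day 25 and 1562 ± 246 at day 50 (SD, n = 4 each).

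*nrv3*, the neuronal beta gene, was lower at day 25 and day 50 than at any younger age. Its normalised counts at day 1 were 22814 and 20470 in males and 20325 and 20781 in females, and at day 5 they were 19508 and 16274 in males and 15355 and 13542 in females. The males of day 10, with 16763 and 16593, lay within the range of the day 5 males. At day 25 males had 10788 and 8153 and females 12015 and 8189, all lower than any library up to day 10. At day 50 males had 9454 and 12547 and females 11450 and 12413, within or just above the day 25 range. The means were 21098 ± 1160 at day 1, 16170 ± 2498 at day 5, 9786 ± 1931 at day 25 and 11466 ± 1427 at day 50 (SD, n = 4 each), and 54.3% of the day 1 level was left at day 50.

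**Figure D1:**
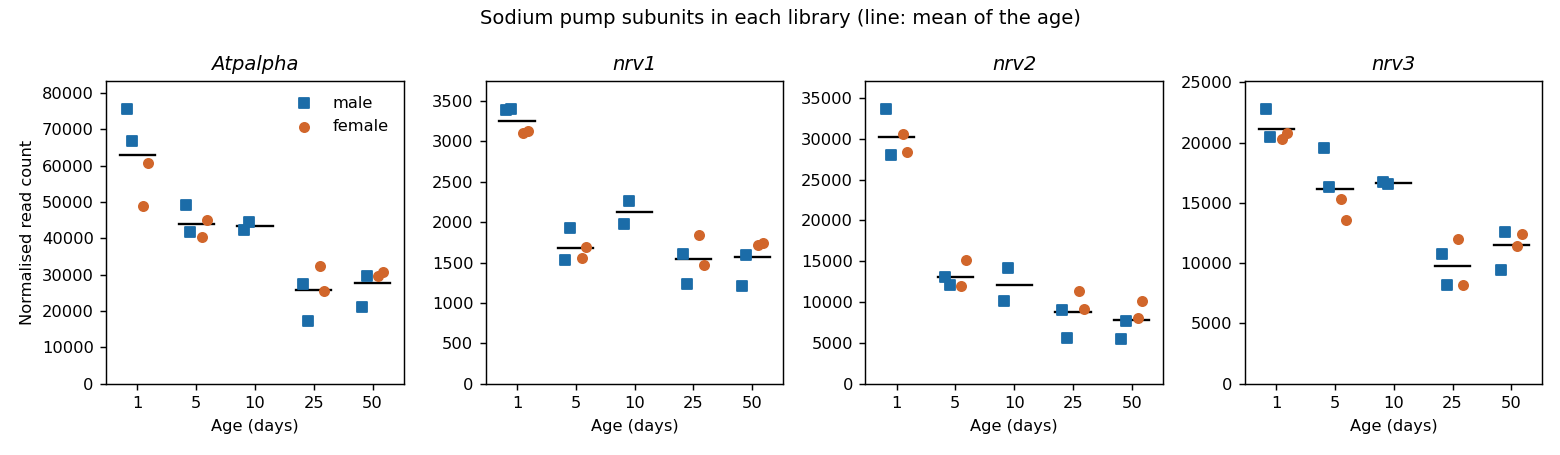
Normalised read counts of the 4 sodium pump genes (y axis, linear, from 0) in each of the 18 libraries by age in days (x axis), with squares for libraries labelled male, circles for libraries labelled female (CT16 and CT18 of day 50 shown by label) and a line at the mean of the age. In every panel the 4 libraries of day 50 lie below the 4 of day 1, and for *nrv1*, *nrv2* and *nrv3* those of day 5 do so too.

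Changes between ages were fitted for all 14663 genes that reached 10 normalised counts in at least 2 libraries, which all 4 pump genes did. The fit was limma on log2 of the value plus 1, each change averaged those of the 2 sexes, and p-values were adjusted by Benjamini-Hochberg over all tested genes. A change was called when it exceeded 1.5-fold and its adjusted p was under 0.1. The comparisons of day 5 and of day 50 with day 1 share the day 1 libraries. At day 50 against day 1 all 4 pump genes were called lower, against 12.8% of all tested genes. The log2 fold change of day 50 over day 1 was -1.98 ± 0.18 for *nrv2* (SE, adjusted p = 7.68e-07), -1.18 ± 0.18 for *Atpalpha* (adjusted p = 0.000193), -1.07 ± 0.14 for *nrv1* (adjusted p = 2.58e-05) and -0.89 ± 0.16 for *nrv3* (adjusted p = 0.000591). The median over all tested genes was -0.05. Among all tested genes, 2.95% had a change as low as that of *nrv2* or lower, 9.15% as low as *Atpalpha*, 10.8% as low as *nrv1* and 14.3% as low as *nrv3*. The libraries CT16 and CT18 carried transcripts of both sexes. Without them the changes were -2.18 for *nrv2*, -1.31 for *Atpalpha*, -1.17 for *nrv1* and -1.02 for *nrv3*.

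Different numbers of the 4 genes were called in each shorter interval. From day 1 to day 5, *nrv2* (log2 fold change -1.21 ± 0.18, SE, adjusted p = 0.000213) and *nrv1* (-0.96 ± 0.14, adjusted p = 0.000114) were called lower in the limma fit, 2 of the 4 pump genes against 8.78% of all tested genes. *Atpalpha*, at -0.50 ± 0.18 (adjusted p = 0.0834), was past the limit on p but short of 1.5-fold, and *nrv3*, at -0.39 ± 0.16, had an adjusted p of 0.115. From day 5 to day 25, *Atpalpha* (-0.81 ± 0.18, adjusted p = 0.0116), *nrv3* (-0.73 ± 0.16, adjusted p = 0.00931) and *nrv2* (-0.61 ± 0.18, adjusted p = 0.0389) were called lower, 3 of the 4 pump genes against 3.93% of all tested genes. *nrv1* stood at -0.13 ± 0.14 in this interval. Whether 2 pump genes differ in their change was tested only through the ratios to *Atpalpha* given below.

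The calls from day 5 to day 25 did not hold without the lower library of each sex at day 25. Without CT12 and CT14, 0 of the 4 genes were called, with log2 fold changes of -0.56 for *Atpalpha* (adjusted p = 0.253 by limma), -0.49 for *nrv3*, -0.36 for *nrv2* and 0.04 for *nrv1*. This omission was chosen after the values were seen. Leaving out the lower libraries makes any fall of these genes smaller by construction, and leaves fewer libraries at day 25. Over all tested genes, 80 were called lower without the pair of libraries and 576 with all libraries. With either one of them left out alone, *Atpalpha* and *nrv3* stayed called and *nrv2* did not. Some other transcripts were also low in the same 2 libraries. The summed level of 11 neuronal marker genes was 26026 in CT12 and 33320 in CT11, and 31593 in CT14 and 38146 in CT13. The summed level of 7 glial marker genes was 16866 in CT12 and 23655 in CT11, and 19886 in CT14 and 25498 in CT13. The 4 markers of scolopale and support cells summed to 5625 in CT12 and 5720 in CT11, and to 5190 in CT14 and 4896 in CT13. The 8 auditory neuron markers summed to 6041 in CT12 and 6539 in CT11, and to 6349 in CT14 and 6270 in CT13. The 9 muscle markers were higher in the same libraries, with 15379 in CT12 and 12657 in CT11, and 13882 in CT14 and 12487 in CT13. The part of these cells in the day 25 values was not tested.

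From day 25 to day 50 none of the 4 pump genes was called by limma, whereas 17.4% of all tested genes were called lower. That share is from all libraries and was smaller without CT16 and CT18. The log2 fold changes were 0.14 for *Atpalpha* (95% interval -0.25 to 0.52), 0.02 for *nrv1* (-0.26 to 0.31), -0.16 for *nrv2* (-0.54 to 0.22) and 0.24 for *nrv3* (-0.09 to 0.57). The counts were 0 at an unadjusted p below 0.05, and 0 with edgeR and with DESeq2. The signs here are not firm, since *Atpalpha* and *nrv1* turned to -0.12 and -0.15 without CT12 and CT14, and *nrv1* to -0.08 without CT16 and CT18.

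**Figure D2:**
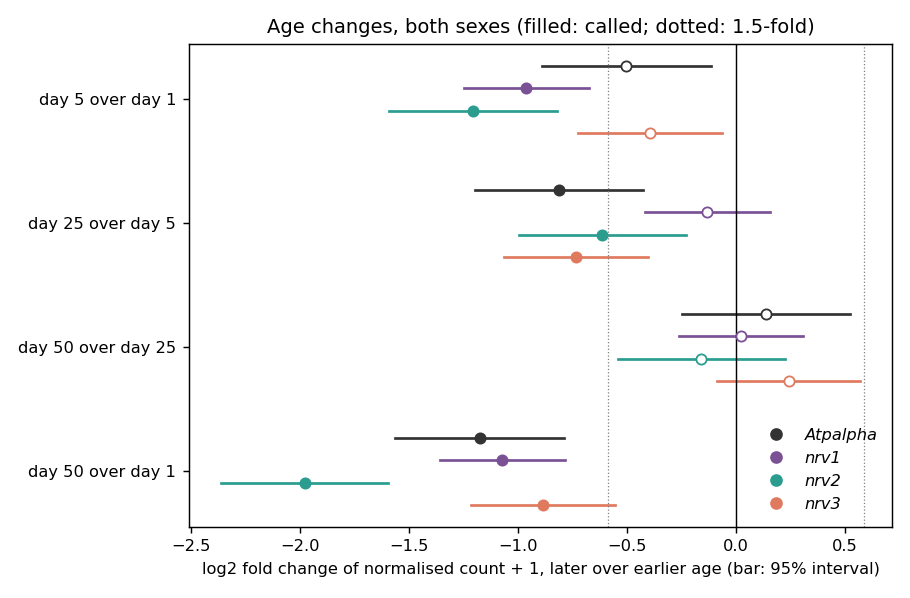
Log2 fold change of the later over the earlier age (x axis) for the 4 pump genes in 4 pairs of ages from top to bottom, as the mean of both sexes from the limma fit, with bars for the 95% interval, filled points for called changes and dotted lines at 1.5-fold. All 4 points of day 50 over day 1 are filled and lie between -0.89 and -1.98, and none of day 50 over day 25 is filled.

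Day 10 was sampled in males only and splits the interval from day 5 to day 25 in that sex. From day 5 to day 10 none of the 4 genes was called in males by limma, nor by edgeR or DESeq2, and none had an unadjusted p below 0.05. The log2 fold changes ran from -0.10 (*nrv3*) to 0.30 (*nrv1*), and 0.0% of all tested genes were called in either direction, with 983 at an unadjusted p below 0.05 and 0 called by edgeR. From day 10 to day 25 all 4 genes were called lower in males, against 12.2% of all tested genes. The log2 fold changes were -0.996 ± 0.26 for *Atpalpha* (SE, adjusted p = 0.0176), -0.83 ± 0.22 for *nrv3* (adjusted p = 0.0196), -0.75 ± 0.26 for *nrv2* (adjusted p = 0.048) and -0.59 ± 0.19 for *nrv1* (adjusted p = 0.0401). This step did not hold without a single library of day 25. Without CT12 the changes were -0.66 for *Atpalpha*, -0.63 for *nrv3*, -0.40 for *nrv2* and -0.40 for *nrv1*, and 0 of 4 were called, with adjusted p-values from 0.198 for *nrv3* to 0.415 for *nrv2*. Without the day 10 library CT10, 1 of 4 was called. With edgeR and with DESeq2, 3 of 4 were called, and *nrv1*, at -0.58 in each, was not. The 12.2% is from the limma fit with all libraries. Shares of all tested genes in these other settings are not given here, so a loss particular to the pump genes was not shown.

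The fall was called in both sexes. Between day 1 and day 50 all 4 genes were called lower in males (against 9.38% of all tested genes) and in females (against 10.4%). In males the log2 fold changes were -2.25 ± 0.26 for *nrv2*, -1.50 ± 0.26 for *Atpalpha*, -1.29 ± 0.19 for *nrv1* and -0.99 ± 0.22 for *nrv3* (SE). In females they were -1.71 ± 0.26 for *nrv2*, -0.85 ± 0.26 for *Atpalpha*, -0.85 ± 0.19 for *nrv1* and -0.79 ± 0.22 for *nrv3*. The male change minus the female change ran from -0.65 ± 0.37 for *Atpalpha* (adjusted p = 0.536, 95% interval -1.42 to 0.13) to -0.20 ± 0.31 for *nrv3*, so a larger fall in males was not shown. For this difference 0.0% of all tested genes were called by limma and 0 by edgeR, with 1460 genes but 0 pump genes at an unadjusted p below 0.05. The male calls held with any single library left out. Of the female calls, 2 of 4 were left without CT17, with *Atpalpha* at an adjusted p of 0.128 and *nrv3* at 0.118. *Atpalpha* in females was also not called without CT04 (-0.70, adjusted p = 0.18), without CT18 (-0.88, adjusted p = 0.126) or without both CT16 and CT18 (-0.88, adjusted p = 0.109), and *nrv3* in females not without CT03.

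In the first interval *nrv1* and *nrv2* were called lower in males (against 5.75% of all tested genes) and in females (against 6.25%). The log2 fold change of day 5 over day 1 was -0.98 ± 0.19 in males and -0.94 ± 0.19 in females for *nrv1*, and -1.28 ± 0.26 in males and -1.13 ± 0.26 in females for *nrv2* (SE). The male minus female difference was -0.040 for *nrv1* (95% interval -0.61 to 0.53) and -0.16 for *nrv2* (-0.92 to 0.61). Without the female day 5 library CT07, *nrv2* stood at -0.95 in females and was no longer called. From day 5 to day 25 *Atpalpha*, *nrv2* and *nrv3* were called lower in males (against 5.46% of all tested genes) but not without CT06 or without CT12, when 0 of 4 were called, and *nrv2* was not called without CT05. In females 0 of 4 were called by limma, edgeR or DESeq2 in this interval (against 0.164% of all tested genes), although *Atpalpha* at -0.56 ± 0.26 and *nrv3* at -0.54 ± 0.22 had an unadjusted p below 0.05. The difference between the sexes in this interval was -0.49 ± 0.37 for *Atpalpha* and -0.39 ± 0.31 for *nrv3*, male minus female, with adjusted p-values of 0.814 and 0.818.

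No difference in level between the sexes was called. Averaged over days 1, 5, 25 and 50, the log2 ratio of males over females was -0.05 ± 0.13 for *Atpalpha*, -0.09 ± 0.10 for *nrv1*, -0.26 ± 0.13 for *nrv2* and 0.04 ± 0.11 for *nrv3* (SE), with adjusted p-values of 0.433 or more, and 3.09% of all tested genes were called in either direction. None of the 4 was called by limma, edgeR or DESeq2, and none had an unadjusted p below 0.05. The 95% intervals reached from -0.53 to 0.01 for *nrv2* and from -0.32 to 0.22 for *Atpalpha*. Day 50 holds CT16 and CT18, which carried transcripts of both sexes. Without that day, *nrv2* stood at -0.18 and the other 3 genes between -0.01 and 0.10.

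The ratio of a beta gene to *Atpalpha* within a library does not depend on how libraries were scaled, and is given here per kb of exon. At day 1 the *nrv2* ratio was 0.834 and 0.787 in males and 1.17 and 0.874 in females. At day 5 it was 0.501 and 0.543 in males and 0.554 and 0.633 in females, below every day 1 library. At day 10 the males had 0.447 and 0.595, at day 25 the males had 0.618 and 0.605 and the females 0.655 and 0.675, and at day 50 the males had 0.484 and 0.481 and the females 0.506 and 0.615. The mean ratio was 0.522 ± 0.063 at day 50 against 0.916 ± 0.173 at day 1 (SD, n = 4 each), with no overlap between these ages. The log2 change of the ratio was -0.80 for day 50 over day 1 and -0.70 for day 5 over day 1, each with p = 0.0286 in an exact two-sided permutation test, which is the smallest that 4 against 4 libraries allow, and 0.0762 after adjustment over the 16 ratio tests. Both calls of *nrv2* held with any single library left out, at adjusted p-values from 0.0653 to 0.0914.

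With all libraries no change of the *nrv3* ratio was called. The *nrv3* ratio was 0.580 ± 0.035 at day 50 and 0.478 ± 0.074 at day 1 (SD, n = 4 each), a log2 change of 0.29 with exact permutation p = 0.0857 (adjusted p = 0.137) and a range of 0.542 to 0.623 at day 50 against 0.422 to 0.582 at day 1. These ranges overlapped, and without the female day 1 library CT03 the change was 0.39 and was called (exact permutation p = 0.0286, adjusted p = 0.0653). Under the other alternatives it was not called, with adjusted p-values from 0.125 to 0.291. The log2 changes over the shorter intervals were 0.11 for day 5 over day 1, 0.078 for day 25 over day 5 and 0.10 for day 50 over day 25. The *nrv1* ratio had its lowest mean at day 5. Days 5 and 1 overlapped, and the change between them was not called (log2 change -0.46, exact permutation p = 0.0571, adjusted p = 0.114). It averaged 0.160 ± 0.024 at day 1, 0.117 ± 0.019 at day 5, 0.186 ± 0.021 at day 25 and 0.171 ± 0.006 at day 50 (SD, n = 4 each). The libraries of day 25 lay above all those of day 5 (log2 change 0.68, exact permutation p = 0.0286, adjusted p = 0.0762), but without CT12 the change was 0.60 and was not called (exact permutation p = 0.0571, adjusted p = 0.114). Day 50 overlapped with day 1 (log2 change 0.10, exact permutation p = 0.371), but without CT03 the change was 0.20 and was called (exact permutation p = 0.0286, adjusted p = 0.0653). Other single libraries also brought calls that the full set did not give. Without CT06 the *nrv1* change of day 5 over day 1 was called (-0.55), without CT08 the *nrv2* change of day 25 over day 5 (0.26), and without CT18 the *nrv2* change of day 50 over day 25 (-0.38).

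Summed per kb, the 3 beta genes had a higher level than *Atpalpha* in every library. The summed ratio averaged 1.55 ± 0.27 at day 1, 1.19 ± 0.03 at day 5, 1.37 ± 0.08 at day 25 and 1.27 ± 0.06 at day 50 (SD, n = 4 each), and the males of day 10 had 1.14 and 1.27. The log2 change was -0.37 for day 5 over day 1, 0.20 for day 25 over day 5 and -0.27 for day 50 over day 1, each with exact permutation p = 0.0286 and adjusted p = 0.0762. The day 1 mean leaned on the female library CT03, at 1.94 against 1.37 to 1.51 in the other 3, and without it the change of day 50 over day 1 was -0.16 (exact permutation p = 0.0571, adjusted p = 0.102) and was no longer called. The change of day 5 over day 1 was not called without CT05 (adjusted p = 0.131), CT07 (adjusted p = 0.131) or CT08 (adjusted p = 0.114). That of day 50 over day 1 was also not called without any 1 of the day 50 libraries, and over all alternatives its adjusted p ran from 0.0653 to 0.237. Summed without division by length, the change from day 1 to day 50 was -0.22 with exact permutation p = 0.0571 (adjusted p = 0.114). All ratio calls are at the limit of this design: with permutations kept within each sex, the smallest possible p is 0.0556 and none reached an adjusted p below 0.1.

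**Figure D3:**
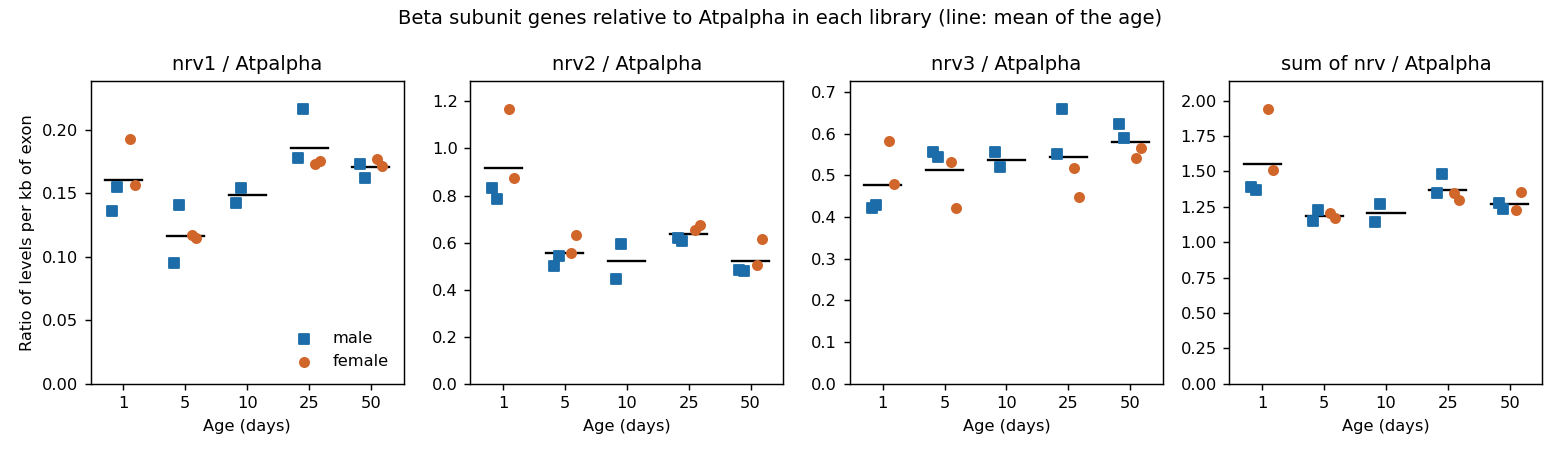
Level of *nrv1*, *nrv2*, *nrv3* and of their sum relative to *Atpalpha*, per kb of exon (y axes, linear, from 0), in each library by age in days, with squares for libraries labelled male, circles for libraries labelled female and a line at the mean of the age. The *nrv2* ratio averages 0.522 at day 50 and 0.916 at day 1, and the *nrv3* ratio 0.580 at day 50 and 0.478 at day 1.

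The beta transcripts differed in make-up between ages. Of the summed level of the 3 genes per kb, *nrv2* made up 58.8% ± 1.4 at day 1, 46.9% ± 4.9 at day 5, 46.8% ± 4.7 at day 25 and 40.9% ± 3.4 at day 50 (SD, n = 4 each), and 39.1% and 46.8% in the males of day 10. *nrv3* made up 30.8% ± 0.8 at day 1, 43.3% ± 5.1 at day 5, 39.6% ± 4.2 at day 25 and 45.6% ± 3.2 at day 50. *nrv1* made up 13.4% ± 0.7 at day 50 and 10.3% ± 0.7 at day 1. *nrv2* stood at 0.78 to 1.09 times the level of *nrv3* per kb in the day 50 libraries, and at 1.82 to 2.01 times in those of day 1. The order of these 2 genes at day 50 depends on the length used, since with the longest transcript of each gene *nrv2* made up 47.5% and *nrv3* 40.8%, but the day 50 share of *nrv2* was below its day 1 share under each length. With CT16 and CT18 left out, the day 50 shares were 39.6% for *nrv2*, 46.5% for *nrv3* and 14.0% for *nrv1*, and *nrv2* stood at 0.78 and 0.93 times the level of *nrv3*. No test was run on the shares.

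**Figure D4:**
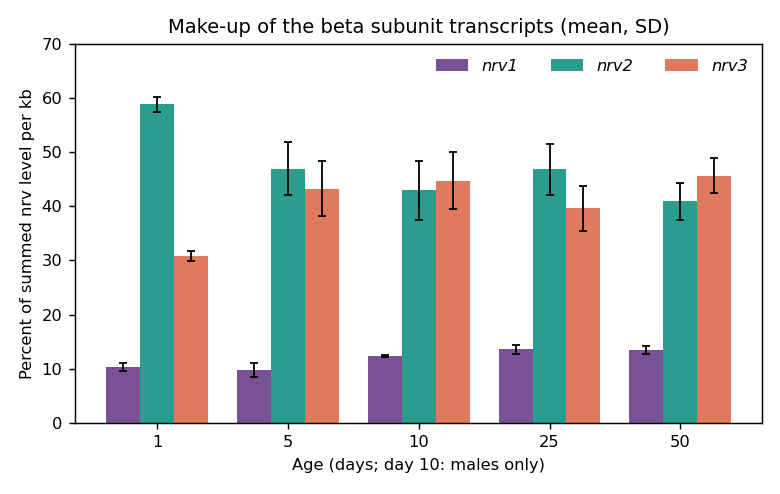
Share of *nrv1*, *nrv2* and *nrv3* in their summed level per kb of exon, in percent (y axis, from 0), by age in days (x axis), as bars for the mean with the SD over 4 libraries (2 at day 10, males only). *nrv2* makes up 40.9% at day 50 and 58.8% at day 1, and *nrv3* 45.6% at day 50 and 30.8% at day 1.

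*Drosophila* has further genes related to the subunits, and these had low counts in the segment. Of the alpha family, *JYalpha*, known for a role in male fertility, ran from 64.6 to 193 normalised counts, *CG45062* from 13.5 to 97.9 and *CG45063* from 0 to 26.7. *JYalpha* was the only one of the 3 called between days 1 and 50, and it rose, with 134 ± 33.4 at day 50 and 75.1 ± 15.8 at day 1 (SD, n = 4 each), a log2 fold change of 0.82 ± 0.24 (SE, adjusted p = 0.0206). For comparison 9.21% of all tested genes were called higher in this interval. *CG45062* and *CG45063* were called lower at day 50 than at day 25, a direction called for 17.4% of all tested genes. *CG45062* averaged 29.7 at day 50 and 78.0 at day 25, a log2 fold change of -1.59 ± 0.38 (adjusted p = 0.00885), and *CG45063* averaged 8.39 at day 50 and 18.2 at day 25, a change of -1.61 ± 0.66 (adjusted p = 0.0781). Of the beta-like genes, *CG33310* averaged 70.6 ± 28.4 at day 50 and 123 ± 36.9 at day 1 (log2 fold change -0.81 ± 0.27, adjusted p = 0.0382), and *CG5250* and *CG11703* stayed below 36 in every library. At day 50 against day 25, *CG33310* (-1.16 ± 0.27, adjusted p = 0.00786) and *CG5250* (-1.40 ± 0.59, adjusted p = 0.0852) were called lower and *CG11703* was not. Several of these calls did not hold without CT16 and CT18. The share of all tested genes called lower at day 50 against day 25 was then also below 17.4%. *JYalpha* stayed called (1.08, adjusted p = 0.0161), as did *CG45062* (-1.41, adjusted p = 0.0269) and *CG33310* (-0.85, adjusted p = 0.0953) at day 50 against day 25. *CG33310* at day 50 against day 1 (-0.50, adjusted p = 0.283), and *CG45063* (-0.54, adjusted p = 0.515) and *CG5250* (-0.58, adjusted p = 0.589) at day 50 against day 25, were not called. Apart from 2 zeros for *CG11703* and 1 for *CG45063*, all 6 genes had reads in each library. Of the other alpha-like symbols looked for, *CG17923* and *CG40625* are older names of *JYalpha*, and *CG3701* was not found.

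Some other pumps of the same P-type class also fell. Between day 50 and day 1, 5 of 11 listed genes were called lower and 0 higher (all tested genes 12.8% and 9.21%), with a median log2 fold change of -0.62 against -0.05 over all tested genes. *Ca-P60A*, which encodes the SERCA calcium pump of the endoplasmic reticulum and is abundant in muscle, had 2250 ± 144 at day 50 and 18758 ± 6231 at day 1 (SD, n = 4 each), a log2 fold change of -2.99 ± 0.20 (SE, adjusted p = 2.43e-08). *SPoCk*, a calcium pump of the secretory pathway, had -1.06 ± 0.11 (adjusted p = 4.71e-06), *ATP7*, a copper pump, -0.86 ± 0.22 (adjusted p = 0.00994) and *PMCA*, the calcium pump of the plasma membrane, -0.81 ± 0.15 (adjusted p = 0.000959). In the shorter intervals, 2 of the 11 were called lower at day 5 against day 1 (all tested genes 8.78%), 1 at day 25 against day 5 (3.93%) and 0 at day 50 against day 25 (17.4%). Leaving out CT16 and CT18, 5 of 11 were again called lower at day 50 against day 1 (all tested genes 10.8%).

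Among 22 genes that carry or gate sodium and potassium, 7 were called lower and 0 higher at day 50 against day 1 (all tested genes 12.8% and 9.21%), with a median of -0.28. The count was also 7 without CT16 and CT18, with *Nhe1* called and *Nha2* not, and all genes named here stayed called. *Eaat1*, the sodium-driven glutamate transporter of glia, had 1784 ± 92.1 at day 50 and 4554 ± 883 at day 1, a log2 fold change of -1.33 ± 0.15 (adjusted p = 8e-06). *CG1090*, of the family of potassium-dependent sodium/calcium exchangers, had -1.39 ± 0.23 (adjusted p = 0.000312), and *zyd*, a glial member of that family, -0.94 ± 0.19 (adjusted p = 0.00189). *tipE*, an auxiliary subunit of the voltage-gated sodium channel, had -1.002 ± 0.17 (adjusted p = 0.000473), whereas the channel itself, *para*, stood at -0.10 ± 0.15. *Ncc69*, a sodium-potassium-chloride cotransporter, stood at -0.0026 ± 0.20.

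Of 23 septate junction genes, which share the junctional role of the pump subunits, 3 were called lower and 0 higher at day 50 against day 1, a share like the 12.8% of all tested genes. Their median of -0.033 was close to the -0.05 of all tested genes. The 3 were *M6*, which encodes a proteolipid protein of tricellular junctions (-1.21 ± 0.17, adjusted p = 5.74e-05), *Gli*, the transmembrane protein Gliotactin of the same junctions (-0.84 ± 0.15, adjusted p = 0.000699), and *crok*, a Ly6 protein needed to assemble septate junctions (-0.80 ± 0.18, adjusted p = 0.0036). The core genes *cora* and *Nrx-IV* stood at 0.13 ± 0.12 and -0.37 ± 0.12 and were not called. In the limma fit *Nrx-IV* was past the limit on p (adjusted p = 0.0313) but short of 1.5-fold, whereas *cora* had an adjusted p of 0.455. When CT16 and CT18 were left out, 4 of 23 were called lower, with *bou* added, against 10.8% of all tested genes.

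**Figure D5:**
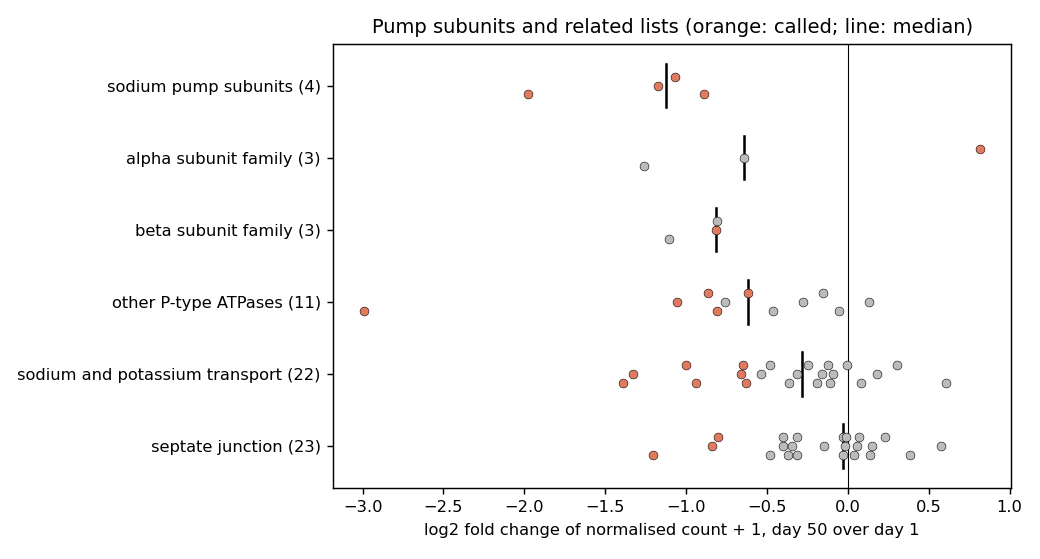
Log2 fold change of day 50 over day 1 (x axis) of every tested gene in 6 groups with the number of genes in brackets, orange where called and grey where not, with a line at the median of the group. All 4 pump subunits are called lower, as are 5 of 11 other P-type ATPases, 7 of 22 sodium and potassium transport genes and 3 of 23 septate junction genes.

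The markers of scolopale cells and auditory neurons overlapped between day 50 and day 1 in their sums. Over all tested genes, 12.8% were called lower and 9.21% higher between these ages. The 4 scolopale and support cell markers summed to between 3936 and 6647 normalised counts in the day 50 libraries and between 4029 and 4999 in those of day 1, and 1 of 4 (*sv*) was called lower. The 8 auditory neuron markers summed to 5268 to 6843 at day 50 and 4537 to 6651 at day 1, and 1 of 8 (*nan*) was called lower. The 11 general neuron markers summed to 36435 to 41795 at day 50 and 42554 to 52017 at day 1, with *VAChT* and *cpx* called lower and 9 not called. The 7 glial markers summed to 17056 to 25750 at day 50 and 26441 to 37515 at day 1, with *Eaat1*, *alrm* and *Gli* called lower. The neuron and the glial totals were thus lower in every day 50 library than in any of day 1. The log2 fold changes of the 11 neuron markers ran from -0.88 to 0.38, with *elav* at 0.27. Their median was -0.11, against -0.05 over all tested genes. *Gs2*, a glutamine synthetase, made up most of the glial total and was not called (-0.48 ± 0.17), and the glial markers *repo* (0.16 ± 0.25), *moody* (-0.090 ± 0.18) and *wrapper* (-0.027 ± 0.31) were not called either. Without CT16 and CT18, *sv*, *nan* and *alrm* were no longer called and *Gs2* was. Of all tested genes 10.8% were then called lower.

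Some markers of other tissue also differed between ages. The 9 muscle markers summed to 10103 to 11370 at day 50 and 62294 to 94344 at day 1, and 8 of 9 were called lower, 7 of them already from day 1 to day 5. None of these markers was at 0 in any library. Over all tested genes, 12.8% were called lower and 9.21% higher from day 1 to day 50, and 8.78% lower from day 1 to day 5. The 8 retina markers varied from 917 to 102340 between libraries of day 5 alone, with 1 called higher from day 1 to day 50. The 5 epidermal markers summed to 5977 to 6537 at day 50 and 13183 to 22552 at day 1. Of these, 2 of 5 were called lower, *ple* (-2.84) and *Ddc* (-0.97), enzymes of cuticle tanning. The other epidermal markers were not called, with log2 fold changes of 0.28 for *grh*, 0.56 for *crb* and -0.22 for *shg*. Of 6 fat body markers 3 were called higher and 2 lower, and of 5 hemocyte markers 1 was called higher and 1 lower. Without CT16 and CT18, 8 of 9 muscle markers, 2 of 5 epidermal markers and 2 of 6 fat body markers were again called lower, and 0 of 8 retina markers and 0 of 5 hemocyte markers were called higher. The shares of all tested genes were then 10.8% lower and 7.04% higher. The part of muscle, glia, neurons, epidermis, retina, fat body and hemocytes in the pump values was not tested.

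Over the 18 libraries, each subunit had its own nearest genes. Among 10327 tested genes with a mean of at least 50, the log2 levels of *Atpalpha* correlated best with *twit* (Pearson r = 0.975, Spearman rho = 0.983), *Gli* (0.969 and 0.961) and *CG6329* (0.962 and 0.953), and *nrv3* followed at place 8 (0.952 and 0.963). Those of *nrv3* correlated best with *igl*, which encodes a calmodulin-binding protein (0.974 and 0.967), *CG43149* (0.968 and 0.981) and *cpx*, the synaptic protein complexin (0.961 and 0.973), and *Atpalpha* stood at place 7. Those of *nrv2* correlated best with *CG8012* (0.973 and 0.955), *CG7781* (0.972 and 0.961) and *CG30101* (0.960 and 0.936), with *Atpalpha* at place 51 (0.921 and 0.932). Those of *nrv1* correlated best with *CG11474* (0.967 and 0.932), *CG8785* (0.956 and 0.886) and *Vdup1* (0.955 and 0.928), with *nrv2* at place 28 and *Atpalpha* at place 275. In all cases the points share the age groups and the scaling of the libraries, and the values are descriptions without a test. By this measure *Atpalpha* lay nearer to *nrv3* than to *nrv2* or *nrv1*. Over the 16 libraries without CT16 and CT18 its r was 0.953 with *nrv3*, 0.920 with *nrv2* and 0.855 with *nrv1*, and 9 of the 12 genes named here were again among the first 3.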

How the data were processed

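RNA-seq of 18 libraries was analysed from the table of the series. SMART-Seq v4 was used by the authors for cDNA and Nextera XT for tagmentation. They aligned paired reads to dm6 in Partek Flow and counted with HTSeq. The deposited signal values are read counts after division by DESeq2 size factors, done by the authors. Whole reads could be recovered from 100% of values within a tolerance of 0.01. The table also holds the authors' mean, fold changes and p-values, which were not used.

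Values were fitted with limma 3.58.1 (trend) in R 4.3.3 on log2(value + 1), with 1 coefficient per age and sex (9 residual degrees of freedom). Alternatives were TMM scaling, count models on recovered reads in edgeR 4.0.16 or DESeq2 1.42.0, pseudocounts of 0.5 and 10, no filter or a mean of 50, models with age and sex added or age alone, and libraries left out. Where 1 library of a group was left out, the remaining one was assumed to vary like the others. Ratios were tested by exact permutation in Python 3.11.15, and their limit was an adjusted p of 0.1. The summing of beta genes per kb and the omission of CT12 and CT14, and of CT16 and CT18 from shares, lists and correlations, were chosen after seeing the data. The fit was tested on simulated data.

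The members and the gene lists were chosen with earlier results of these data known. Genes named are the 4 subunits, all found genes of the alpha and beta families, up to 4 genes of each other pathway list with the largest called change from day 1 to day 50 and a mean of at least 50, and the 3 genes that correlated best with each subunit. Marker genes, *cora*, *Nrx-IV*, *para*, *Ncc69*, *roX1* and *Yp1* fall outside that rule and were chosen with their values known. Of the listed symbols, 5 had no row, of which *CG17923* and *CG40625* are older names of *JYalpha* in RefSeq's gene table. Lengths are the union of exons in the dm6 annotation used here. No sequences are printed.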

Additional observations from a re-analysis of the deposited data

Results flagged for a closer look

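At day 50 the *Atpalpha* count of 21237 in the male library CT15 stood far from the other 3 libraries of that age, which lay between 29598 and 30777. At day 25 the ratio of *nrv1* to *Atpalpha* was 0.217 per kb in the male library CT12 and 0.173 to 0.178 in the other 3. In 32 groups of 4 values tested in this way, 2 stood apart, and chance alone sets apart about 1 in 20.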

How the results depend on the processing

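The calls of all 4 genes from day 1 to day 50, and those of *nrv1* and *nrv2* from day 1 to day 5, held under every alternative fit and every single library left out. Without CT12 and CT14, the log2 fold changes from day 5 to 25 were -0.56 for *Atpalpha*, 0.044 for *nrv1*, -0.36 for *nrv2* and -0.49 for *nrv3*, with 0 called, and from day 25 to 50 they were -0.12 for *Atpalpha* and -0.15 for *nrv1*. Without CT16 and CT18 *nrv1* stood at -0.080 from day 25 to 50. With 1 library left out, the change from day 5 to 25 of *nrv2* ran from -0.79 to -0.44, and its call was lost without CT05, CT08, CT12 or CT14. From day 25 to 50, *Atpalpha* ran from -0.028 to 0.30, *nrv1* from -0.076 to 0.12 and *nrv2* from -0.33 to 0.015. In males from day 5 to 10, *Atpalpha* ran from -0.18 to 0.054, *nrv2* from -0.32 to 0.17 and *nrv3* from -0.23 to 0.035. In females from day 5 to 25, *nrv1* ran from -0.14 to 0.19. For males over females, *Atpalpha* ran from -0.13 to 0.034 and *nrv3* from -0.028 to 0.11, and the male minus female change of *nrv3* from day 1 to 50 ran from -0.41 to 0.00133. The number of subunits called ran from 1 to 2 in females from day 1 to 5, from 0 to 3 in males from day 5 to 25, from 0 to 4 in males from day 10 to 25 and from 2 to 4 in females from day 1 to 50. For these counts the shares of all tested genes called are not given here. The causes were not tested.

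The 6 ratio calls were lost with the median in place of the mean, when log2 changes were 0.61 for *nrv1* from day 5 to 25, -0.64 and -0.79 for *nrv2* from day 1 to 5 and 1 to 50, and -0.29, 0.18 and -0.21 for the sum from day 1 to 5, 5 to 25 and 1 to 50. In the exact permutation test on medians each had p = 0.0571. No smaller p is possible there with 4 against 4 libraries, so this loss does not show a weaker change. The *nrv3* ratio from day 5 to 25 turned to -0.012 with the median. The 6 calls were also lost with labels permuted within each sex, when the changes stayed at 0.68, -0.70, -0.80, -0.37, 0.20 and -0.27 and the smallest p rose. Without CT16 and CT18 the changes were 0.68 for *nrv1*, -0.70 and -0.87 for *nrv2* and -0.37, 0.20 and -0.30 for the sum, and without CT12 and CT14 they were 0.60 for *nrv1*, -0.70 and -0.80 for *nrv2* and -0.37, 0.18 and -0.27 for the sum, none of them called. Where the libraries left out were not in the pair compared, p stayed at 0.0286 and the adjustment over all 16 tests rose. Where they were in the pair, fewer libraries were compared and the smallest possible p of the exact permutation test was 0.0667. Only the sum from day 1 to 50 without CT16 and CT18 was above this, at 0.133. Summed without division by length the change from day 1 to 50 was -0.22. With 1 library left out, the *nrv1* ratio ran from -0.55 to -0.36 from day 1 to 5, from 0.58 to 0.77 from day 5 to 25 and from 0.030 to 0.20 from day 1 to 50. The *nrv2* ratio ran from 0.15 to 0.26 from day 5 to 25 and from -0.38 to -0.26 from day 25 to 50. The *nrv3* ratio ran from -0.019 to 0.17 from day 5 to 25 and from 0.23 to 0.39 from day 1 to 50. The summed ratio ran from -0.43 to -0.26 from day 1 to 5 and from -0.33 to -0.16 from day 1 to 50.

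Divided by the longest transcript, the shares at day 50 and day 1 were 11.7% and 8.57% for *nrv1*, 47.5% and 65.2% for *nrv2* and 40.8% and 26.3% for *nrv3*. With no division by length they were 7.51% and 5.98% for *nrv1*, 37.1% and 55.3% for *nrv2* and 55.3% and 38.7% for *nrv3*. Without CT16 and CT18 the day 50 shares were 14.0%, 39.6% and 46.5%. No paired analysis was possible because the GEO labels and the columns of the table carry no replicate numbers, and the study's own numbering could be read here for CT01 only.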
